A study of Rattus norvegicus with 18 samples.

Results

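Burning of fatty acids in mitochondria was followed through fracture healing by the mRNA of 9 of its enzymes: Cpt1a, Cpt2, Acadvl, Acadl, Acadm, Hadha, Hadhb, Acaa2 and Ech1. These were chosen by gene symbol, and a probe set counted if the array's annotation gave it that symbol alone. All 9 genes were found, on 12 probe sets, among 4736 genes with such a probe set and 8740 probe sets tested. Where a gene had several probe sets, the one with the highest mean log2 signal gave its values, and the others are described beside it. The measurements came from 18 Affymetrix rat genome arrays of female Sprague-Dawley rats aged 6 weeks (young), 26 weeks (adult) or 52 weeks (older) at fracture. The closed transverse fracture was made at the middle of the left femoral shaft, with a steel rod already in the marrow cavity, and the femur was taken at 3 days or at 1, 2, 4 or 6 weeks, or without a fracture from sham controls. The middle portion of the bone was used whole, so callus, cortical bone and marrow were read together. The data analysed held 1 array for each age at each time, with RNA pooled from 2 rats, 36 rats in all. Further arrays of each age and time that the methods describe were not analysed here. The 3 ages therefore stood in as replicates of a time and the 6 times stood in as replicates of an age. The error behind each p-value of the linear model is what its time and age terms left unexplained over the arrays fitted. It mixes any response that differs with age with variation between pools and arrays, and does not measure variation between single rats.

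A long-chain fatty acid enters the mitochondrion as a carnitine ester. It is then shortened in a cycle of oxidation, hydration, a further oxidation and thiolysis, which releases acetyl-CoA for the citric acid cycle. Heart, skeletal muscle, liver and brown fat depend on this pathway in the fasted animal, and many of its genes are known targets of nuclear receptors such as PPAR-alpha and the estrogen-related receptors. These receptors recognise copies of the short half-site AGGTCA.

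Signal is the scaled brightness of a probe set, with the trimmed mean of every array at 501, and a level below 20 was treated as 20. All 9 genes were above that floor on all 18 arrays. The middle portion of the femur gave strong muscle signal: the summed signal of 15 skeletal muscle fibre markers lay between 142300 and 166900 without a fracture. Ucp1, the defining gene of brown fat, read 19.9, 104 and 38.7 in young, adult and older rats without a fracture. Only the young array of these was below the floor of 20. The ratio of 3-prime to 5-prime actin signal, a measure of RNA integrity, was 1.48 to 1.9 on 13 of the 15 arrays of fractured bone. It was 2.72 and 2.27 in young and adult rats at 6 weeks, and 2.1 to 2.61 on the unfractured arrays. Values with this ratio as a covariate are therefore given where they change a call.

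The start regions of 6 of the 9 genes could be read from a RefSeq promoter table of the GRCr8 build, as 300 bases around the annotated start. Acadl, Acaa2 and Ech1 had no entry. The stretches below are shown because Acadm had the deepest fall of the 9 genes, Acadvl had the change nearest to 0 at 3 days, and Hadha and Hadhb share one region between them. Each lies outside the annotated gene, is written 5′ to 3′, and has in capitals any AGGTCA half-site or GGGCGG GC box (the letters bound by Sp1) on either strand. The Acadm stretch ends at the base before its start (chr2:245542865-245543114, minus strand), the Acadvl stretch ends where its annotated gene begins (chr10:55236787-55236955, minus strand), and the third fills the whole space between the annotated Hadhb and Hadha genes (chr6:31907558-31907800, plus strand, with Hadha transcribed to its right and Hadhb to its left).
Acadm: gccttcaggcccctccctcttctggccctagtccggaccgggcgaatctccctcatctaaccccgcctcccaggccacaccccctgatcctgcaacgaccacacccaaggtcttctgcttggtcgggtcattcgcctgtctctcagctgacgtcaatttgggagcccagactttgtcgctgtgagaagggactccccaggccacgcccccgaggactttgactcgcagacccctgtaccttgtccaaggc
Acadvl: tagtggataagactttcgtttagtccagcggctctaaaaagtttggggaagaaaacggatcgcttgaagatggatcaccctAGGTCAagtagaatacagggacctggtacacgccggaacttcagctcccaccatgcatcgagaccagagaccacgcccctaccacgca
Hadha and Hadhb: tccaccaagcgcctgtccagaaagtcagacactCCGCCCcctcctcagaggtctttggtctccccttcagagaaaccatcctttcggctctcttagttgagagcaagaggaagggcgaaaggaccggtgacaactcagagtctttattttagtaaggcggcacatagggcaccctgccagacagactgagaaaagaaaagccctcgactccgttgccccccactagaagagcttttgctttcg

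Over the full 300 bases, AGGTCA was found on either strand in 2 of the 6 genes, Hadhb and Acadvl, and in 16.2% of 33469 promoters in the table. Acadvl held it at 2 places, of which the printed stretch shows 1. In Hadhb it began 42 bases after the annotated start, inside the gene and so outside the printed stretch. The direct repeat of 2 half-sites with any 1 base between them was in none of the 6 genes and in 0.0538% of promoters, and the extended half-site TCAAGGTCA was in none of the 6 and in 0.433% of promoters. The GC box was in 4 of the 6 genes, Acadm, Cpt2, Hadhb and Hadha, and in 33.1% of promoters. Hadha and Hadhb share one of these boxes, the one in capitals above, so it was counted for both, and for Hadha it was the only one. The Acadm boxes began at the annotated start and 10 and 34 bases after it. They lay inside the gene, so the printed Acadm stretch holds none. The extended half-site contains AGGTCA, and so does the repeat. The annotated starts of Hadha and Hadhb were 301 bases apart on opposite strands, and 7.9% of the 16624 promoters on the minus strand had a plus-strand start that close. These are matches of letters in one window and nothing more was measured at them.

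**Figure D1:**
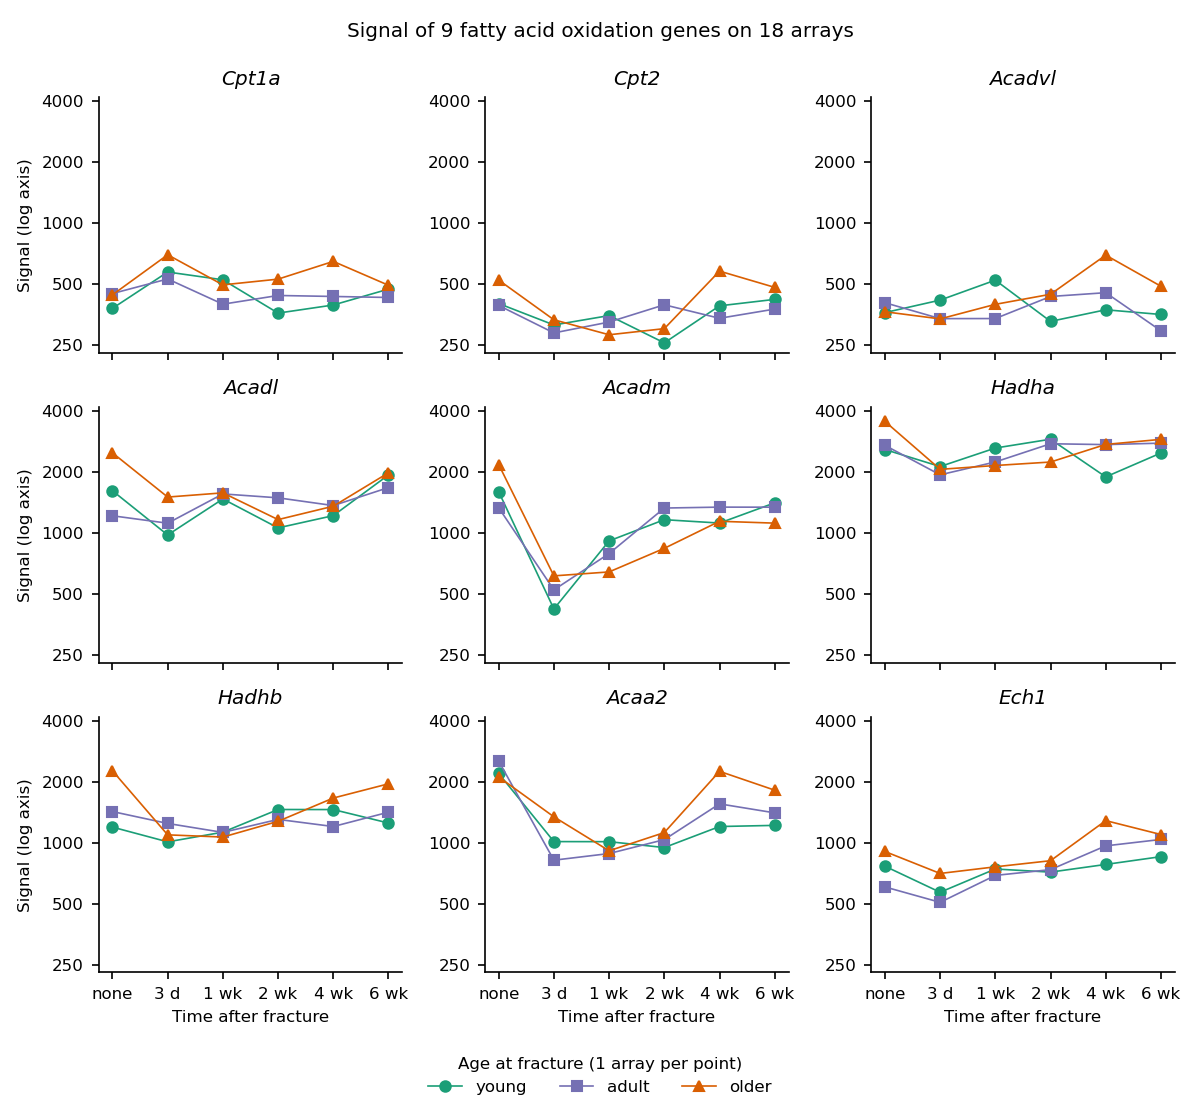
Signal (log axis) of the leading probe set of each of the 9 genes against time after fracture, where "none" is the sham control without a fracture. Each point is 1 array of pooled RNA and lines join the arrays of one age. Acadm lies between 423 and 616 at 3 days, below all 3 unfractured arrays, and Cpt1a lies above its unfractured arrays at that time.

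At 3 days, 3 of the 9 enzymes had fallen against no fracture (Acadm, Acaa2 and Hadha) and 1 had risen (Cpt1a), by limma with Benjamini-Hochberg adjustment over all 8740 probe sets at 0.05. Fracture moved much of the array at this time, with 20.4% of all probe sets lower and 18.9% higher, so these counts were near the background. The median log2 change was -0.495 over the 9 genes and -0.076 over all probe sets, and 8 of the 9 estimates were below 0, against 53.6% of all probe sets. All 3 arrays at 3 days lay below all 3 unfractured arrays for 4 genes (Acadm, Cpt2, Hadha and Acaa2) and above them for Cpt1a, where 25.4% and 21.4% of all probe sets did so.

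Cpt1a encodes the outer-membrane transferase that makes the carnitine ester, the step that malonyl-CoA inhibits and that commits a fatty acid to oxidation. Its signal was 575, 532 and 700 in young, adult and older rats at 3 days, against 381, 451 and 444 in rats of the same ages without a fracture. The groups did not overlap. Cpt1a rose by 0.50 on the log2 scale (SE 0.15, limma adjusted p = 0.0195), a 1.41-fold rise and the only one of the 9 genes at 3 days. From 1 week on its values overlapped the unfractured ones, with log2 changes of 0.15, 0.05, 0.18 and 0.14 at 1, 2, 4 and 6 weeks that did not pass. The call at 3 days was lost in several alternatives: adjusted p was between 0.0530 and 0.154 when any one age was left out, and 0.351 with the actin ratio as a covariate, where the estimate was 0.39.

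Cpt2 encodes the inner-membrane partner that returns the fatty acid to CoA inside the mitochondrion. Its signal was 315, 288 and 334 in young, adult and older rats at 3 days, against 402, 394 and 525 without a fracture, and the groups did not overlap at 3 days or at 1 week. The log2 change was -0.48 at 3 days (SE 0.20, adjusted p = 0.0735 by limma), -0.46 at 1 week and -0.48 at 2 weeks, none of which passed. At 4 and 6 weeks the estimates were -0.03 and -0.04, with 95% intervals from -0.47 to 0.40 at both times. Of the 9 genes, Cpt2 followed the mean profile of the other 8 most closely (Pearson r = 0.869 over 18 arrays, which share their array scaling and RNA pools), and Cpt1a did not follow it (r = -0.079).

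The acyl-CoA dehydrogenases Acadvl, Acadl and Acadm take the first oxidation of very-long, long and medium chains, and their estimates at 3 days were far apart. For Acadm, signal was 423, 526 and 616 in young, adult and older rats at 3 days, against 1603, 1336 and 2184 in those without a fracture. No array at 3 days came near the lowest unfractured one. Acadm fell by 1.70 on the log2 scale (SE 0.23, 95% interval -2.20 to -1.19, limma adjusted p = 0.000226), which is 3.24-fold lower. The fall was -1.92, -1.35 and -1.82 in young, adult and older rats taken one at a time.

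Acadm then climbed at each later time in its mean, from which single ages departed. One week after fracture the 3 arrays read 917, 794 and 644 in young, adult and older rats, a fall by 1.11 on the log2 scale against no fracture (SE 0.23, limma adjusted p = 0.00363). By 2 weeks they read 1167, 1332 and 843, still all below the unfractured arrays, though the adult value was lower than its unfractured counterpart by only 0.003 on the log2 scale and the change of -0.61 did not pass (adjusted p = 0.0616). Mean signals of the 3 arrays were 1205 ± 123 at 4 weeks and 1294 ± 152 at 6 weeks, against 1707 ± 434 without a fracture (SD, n = 3 each). These late groups overlapped the unfractured one. Set against 3 days, the level at 6 weeks was 2.50-fold higher (log2 change 1.32, SE 0.23, limma adjusted p = 0.00268), and that call was lost without the young rats (1.11, adjusted p = 0.0828) or the adult rats (1.30, adjusted p = 0.0675). With the actin ratio as a covariate the fall at 3 days was -1.34 (adjusted p = 0.0456), and the calls at 1 week (-0.81, adjusted p = 0.147) and for 6 weeks against 3 days (1.02, adjusted p = 0.115) were lost.

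Acadl signal was 981, 1121 and 1509 in young, adult and older rats at 3 days, against 1621, 1220 and 2494 without a fracture. Each age was lower at 3 days than without a fracture, but the groups overlapped, and the change of -0.52 did not pass (SE 0.20, adjusted p = 0.0619). At 6 weeks Acadl read 1941, 1681 and 1989, all above the 3 arrays at 3 days, a 1.58-fold rise against 3 days (log2 change 0.66, SE 0.20, limma adjusted p = 0.0437). That call was lost when any one age was left out (adjusted p 0.0776 to 0.390) and with the actin ratio as a covariate (0.29, adjusted p = 0.629). A further Acadl probe set, rc_AI639522_at, read between 6.3 and 36.8 on all arrays, around the floor, and says nothing of the gene's course. For Acadvl the log2 change at 3 days was -0.06 (95% interval -0.58 to 0.46), with signals of 418, 339 and 338, against 363, 406 and 366 without a fracture. Over all 18 arrays Acadvl lay between 295 and 697, and it passed the test at no time.

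Hadha and Hadhb encode the alpha and beta subunits of the trifunctional protein, which carries out the later steps on long chains: alpha hydrates and oxidises, beta is the thiolase. Hadha read 2135, 1943 and 2068 in young, adult and older rats at 3 days, against 2590, 2716 and 3566 without a fracture, with no overlap. It fell by 0.52 on the log2 scale (SE 0.17, limma adjusted p = 0.0307), a 1.43-fold lower level. The call was lost without the adult or the older rats (adjusted p = 0.191 and 0.188) and with median centring of the arrays (0.109). With the actin ratio as a covariate it was lost as well (0.155), although the estimate was then larger, at -0.67. Its second probe set, D16478_g_at, read 1992, 1931 and 2120 at 3 days, against 2830, 2572 and 2905 without a fracture, likewise apart. The change of this probe set, -0.46, did not pass (SE 0.18, limma adjusted p = 0.0666). The third, X98225_s_at, is assigned to Hadha by the annotation alone, which was not checked against sequence. It did not follow the other 2 and read 416, 570 and 516 at 3 days, against 451, 454 and 341.

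Hadhb read 1015, 1251 and 1099 in young, adult and older rats at 3 days, against 1200, 1432 and 2276 without a fracture. The adult array at 3 days lay above the young unfractured one, and the change of -0.50 did not pass (SE 0.20, adjusted p = 0.0659 by limma). At 1 week the values were 1133, 1130 and 1072 and the groups were apart, with a change of -0.50 (adjusted p = 0.0666). The 2 subunits, whose genes face away from the shared stretch printed above, had a Pearson r of 0.669 over the 18 arrays, the fourth highest of the 36 pairs of genes. The highest was Hadha with Acadm (0.774) and the lowest Cpt1a with Acadm (-0.547). The median over pairs was 0.512, and 31 of 36 were above 0.

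Acaa2, the 3-ketoacyl-CoA thiolase that closes the cycle on shorter chains, was lower than without a fracture at 3 days and at 1 and 2 weeks. Signals were 1018, 824 and 1349 in young, adult and older rats at 3 days, against 2208, 2540 and 2122 without a fracture. They were 1017, 889 and 917 at 1 week and 951, 1041 and 1128 at 2 weeks. None of these 9 arrays reached the lowest unfractured array. Acaa2 fell by 1.13 at 3 days (SE 0.19, limma adjusted p = 0.000854), by 1.28 at 1 week (adjusted p = 0.000602) and by 1.14 at 2 weeks (adjusted p = 0.00131) on the log2 scale, between 2.19-fold and 2.43-fold lower. Without the adult rats the calls at 3 days and 2 weeks were lost (-0.89, adjusted p = 0.0643, and -1.06, adjusted p = 0.0570). With the actin ratio as a covariate the estimates at these 3 times were larger, from -1.64 to -1.76, and all passed.

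At 4 weeks the 3 ages were far apart in Acaa2. Their arrays read 1208, 1563 and 2262 in young, adult and older rats at 4 weeks, with a change of -0.49 against no fracture that did not pass (adjusted p = 0.0895). At 6 weeks they read 1224, 1411 and 1826, all below the unfractured arrays, and the change of -0.64 passed (SE 0.19, limma adjusted p = 0.0441). That call was lost when any one age was left out (adjusted p 0.0908 to 0.388) and with a floor of 100 (0.0503).

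Ech1, an isomerase that prepares unsaturated fatty acids with awkwardly placed double bonds for the cycle, was estimated lower at 3 days and higher at 4 and 6 weeks. Its signal was 572, 510 and 709 in young, adult and older rats at 3 days, against 770, 608 and 910 without a fracture, lower in each age but overlapping between groups, and the change of -0.35 did not pass (SE 0.13, adjusted p = 0.0565). At 4 weeks the 3 arrays read 785, 970 and 1292, each above its own age without a fracture, and the change of 0.40 was at the edge of the threshold (limma adjusted p = 0.04999). Of the alternatives, 12 put this call above the threshold, among them quantile normalization (adjusted p = 0.0534), leaving out the adult rats (0.385) and the actin ratio as a covariate (0.38, adjusted p = 0.292). By 6 weeks Ech1 read 858, 1043 and 1103, against 572, 510 and 709 at 3 days, with no overlap. That difference was 0.75 on the log2 scale (SE 0.13, limma adjusted p = 0.00280), a 1.68-fold higher level at 6 weeks. The call was lost without the adult rats (0.61, adjusted p = 0.0776) and with the actin ratio as a covariate, where the estimate was 0.78 (adjusted p = 0.0611).

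**Figure D2:**
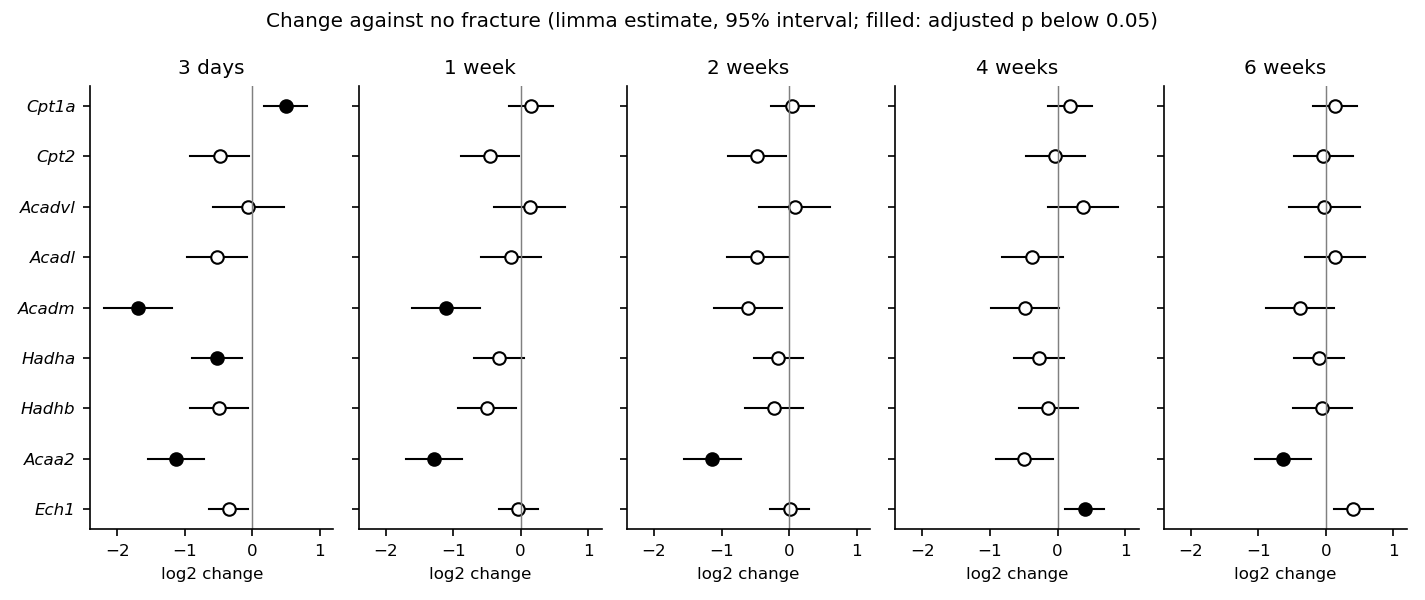
Change in log2 signal against no fracture for each of the 9 genes at 3 days and 1, 2, 4 and 6 weeks. Points are limma estimates over the 3 ages, bars are 95% intervals and filled points passed at an adjusted p of 0.05. Acadm moves from -1.70 at 3 days to -0.38 at 6 weeks, and Acaa2 stays between -1.28 and -1.13 through 2 weeks.

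Later counts over the 9 genes were small. At 1 week 2 genes were lower and none higher (Acadm and Acaa2), where 17.8% of all probe sets were lower and 18% higher. The median log2 change was -0.324 over the 9 genes and -0.039 over all probe sets. At 2 weeks only Acaa2 was called, lower, where 16.8% of probe sets were lower and 16.1% higher, with medians of -0.222 and -0.065. At 4 weeks only Ech1 was called, higher, where 9.7% were lower and 11.5% higher, and at 6 weeks only Acaa2, lower, where 7.11% were lower and 8.34% higher. The median over the 9 genes was -0.135 at 4 weeks and -0.037 at 6 weeks. Arrays did not overlap the unfractured ones for 4 genes at 1 week, 2 genes at 2 weeks, no gene at 4 weeks and 1 gene at 6 weeks, all of them lower, where 29.2%, 26.1%, 17.8% and 14.3% of all probe sets were lower without overlap.

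Set against 3 days, Acadm, Acadl and Ech1 were higher at 6 weeks and none of the 9 was lower, where 10% of all probe sets were higher and 10.2% lower. The median log2 change was 0.447 over the 9 genes and 0 over all probe sets. Cpt1a was the only one of the 9 with an estimate below 0 (-0.36, adjusted p = 0.107). This comparison shares its arrays at 3 days with the fall described above, so the return is not a separate observation of those arrays. None of the 9 genes passed without the adult rats and 1 passed without the young rats. With the actin ratio as a covariate none of Acadm, Acadl and Ech1 passed, and Acaa2 did (0.98, adjusted p = 0.0364).

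Several kinds of cells carry this pathway, and in whole bone fewer cells of a type and less RNA per cell cannot be told apart. Skeletal muscle markers fell with Acadm: the sum of 15 markers was 36730 to 52230 at 3 days and 90550 to 117700 at 1 week, against 142300 to 166900 without a fracture. It was 125900 to 147400 at 2 weeks, each age still below its own unfractured value. At 3 days 14 of the 15 markers were lower, the exception being Myh1 (-0.13), and none was higher. The largest changes were in Myh2 (-4.48), a fast myosin heavy chain, Pvalb (-4.41), the calcium buffer of fast fibres, Casq1 (-3.78) and Eno3 (-3.46). Slow and oxidative fibre markers, the fibres richest in this pathway, summed to 11360 to 17520 at 3 days, 18680 to 26500 at 1 week and 24150 to 29140 at 2 weeks, against 31410 to 57100 without a fracture. They stood at 45640 to 53960 at 4 weeks. At 3 days 7 of the 8 slow markers were lower and none higher, led by Myl2 (-3.99), the mitochondrial creatine kinase Ckmt2 (-3.20), Myl3 (-2.83) and Myh7 (-2.50).

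Of 10 adipocyte markers, 4 were lower at 3 days: Slc2a4 (-2.70), Cfd (-1.76), Lipe (-1.41) and Adrb3 (-0.86). Muscle markers fell at the same time, and whether Slc2a4 or the others read adipocytes alone in this mixed tissue was not tested. The 10 summed to 4933 to 5165 at 3 days, against 8703 to 11540 without a fracture. None of the 10 rose at 3 days, and their sum stayed under the lowest unfractured value through 4 weeks. Of these markers Plin1 and Pck1 were below the floor on 9 arrays each. Erythroid markers, red cell precursors being users of mitochondria until late in their maturation, summed to 7625 to 16680 at 3 days and 12800 to 44860 at 2 weeks, against 68190 to 136100 without a fracture, and 6 of 7 were lower at 3 days. Neutrophil markers were lower in 4 of 4, macrophage markers in 1 of 5 with 1 higher, and no osteoclast marker of 5 was called at 3 days. Markers of fibrous matrix rose in 9 of 9, of osteoblasts in 5 of 8 and of chondrocytes in 3 of 6, with none lower. The part of these cell types in the changes of the 9 genes was not tested.

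**Figure D3:**
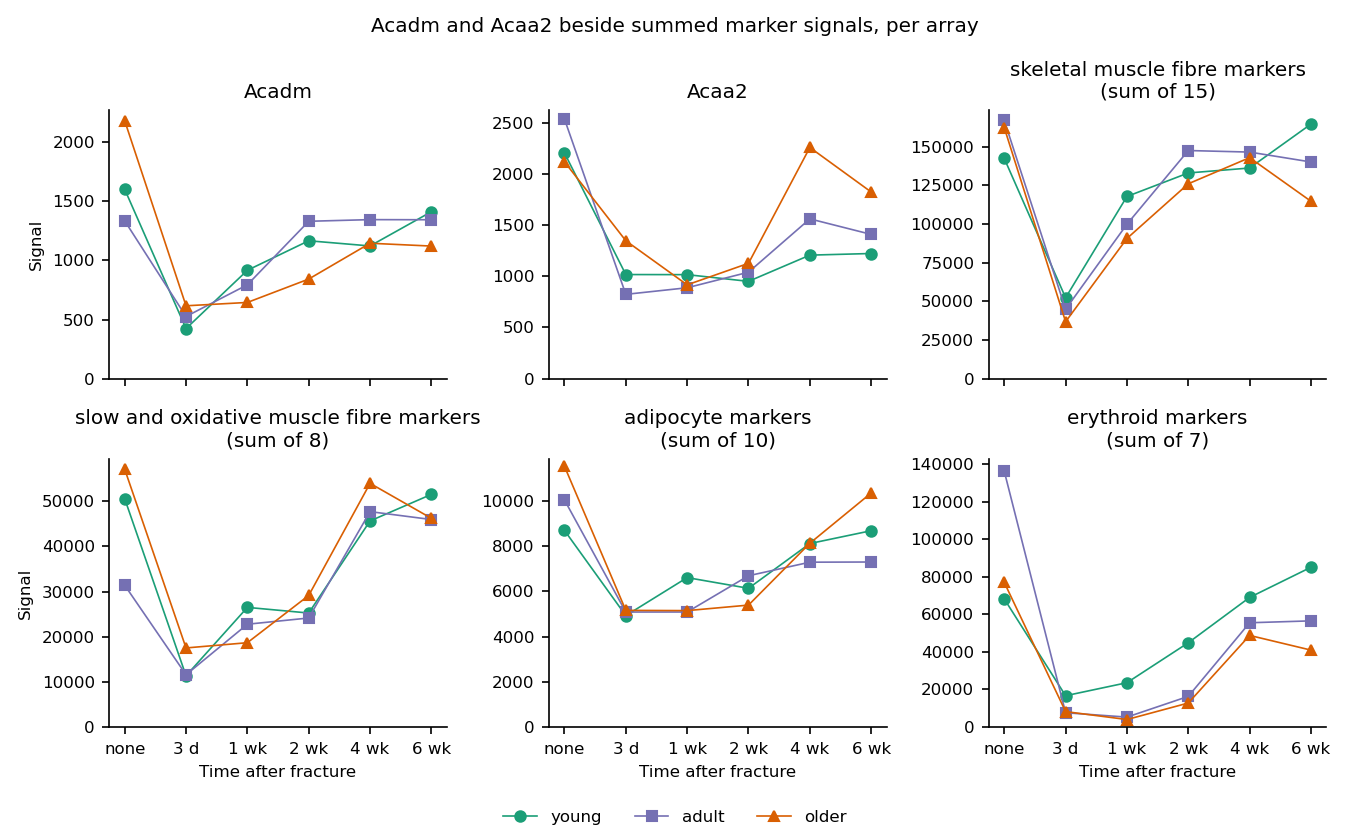
Signal of Acadm and Acaa2 beside the summed signal of skeletal muscle, slow muscle, adipocyte and erythroid markers, with 1 point per array and a linear axis from 0. At 2 weeks the muscle sum is between 125900 and 147400, Acaa2 between 951 and 1128 and the slow muscle sum between 24150 and 29140, all 3 below the unfractured value of the same age.

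The genes outside the 9 whose profile over the 18 arrays was most like the mean of the 9 standardised profiles were Fmc1 (Pearson r = 0.869), Eci1 (0.859), Mfn2 (0.855), Cpt1b (0.851), Vezf1 (0.844), Selenow (0.835), Myoc (0.833), Slc25a11 (0.822), Pdk2 (0.82) and Plaat3 (0.82). These are descriptions over arrays that share their time course and scaling. Eci1 is a further isomerase of the same pathway and Cpt1b is the muscle form of carnitine palmitoyltransferase. Mfn2 fuses mitochondria, and Slc25a11 carries oxoglutarate across the inner membrane. The genes named do not form a single pathway group: Vezf1, Selenow, Myoc and Plaat3, among others, belonged to none of the gene lists used here.

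Other genes listed under mitochondrial fatty acid oxidation moved mostly one way at 3 days. Of 15 measured, 8 were lower and 1 was higher, with a median log2 change of -0.532, where 20.4% of all probe sets were lower and 18.9% higher. The 15 include Acadsb, which showed no variation (0.0, SE 0.005). The largest falls were in Hadh (-1.94, SE 0.60), the dehydrogenase for shorter chains, Slc25a20 (-1.21, SE 0.17), the carrier of carnitine esters across the inner membrane, and Cpt1b (-1.20, SE 0.28). These passed with limma adjusted p of 0.0240, 0.000341 and 0.00554. Eci1 was lower by less (-0.68). Decr1, a reductase for unsaturated fatty acids, was the one gene that rose (0.73, SE 0.23, adjusted p = 0.0248). At 6 weeks 3 of the 15 were lower and none higher against no fracture, where 7.11% of all probe sets were lower and 8.34% higher. Against 3 days 5 were higher and none lower, where 10% of all probe sets were higher and 10.2% lower.

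Carnitine palmitoyltransferase thus had isoforms on opposite sides at 3 days: Cpt1a, the form of liver and most tissues, was higher and Cpt1b lower, each called against the same unfractured arrays. The Cpt1a call was lost when any one age was left out and with the actin ratio as a covariate, as given above. Among 14 genes of uptake and activation, 4 were lower and 6 higher. Acsl1, a long-chain acyl-CoA synthetase of fat, muscle and liver, changed by -2.17, and Fabp3, the fatty acid binding protein of heart and muscle, by -2.03. Fabp5, a binding protein of skin and macrophages, changed by 2.79, and Acsl3, another synthetase, by 1.22. All 4 were called.

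Peroxisomal oxidation, which shortens very long and branched chains, had 2 lower and 2 higher of 11, near the shares over all probe sets, with Cat, catalase, at -2.71, Acox2 at -1.97, Crot at 0.77 and Hsd17b4 at 0.73. Regulators and their known targets had 5 lower and 1 higher of 15. Ucp2, a carrier of the inner membrane, changed by -1.98, Prkab1, a subunit of the AMP-activated kinase, by -1.31, Pdk2, which restrains pyruvate dehydrogenase, by -1.24 and the receptor Rxra by 1.24. Of the receptors named at the start, Ppara changed by -0.70 and did not pass (SE 0.36, adjusted p = 0.147). Esrra, an estrogen-related receptor, was lower (-0.67, SE 0.20, limma adjusted p = 0.0209).

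Synthesis of fatty acids, the opposing pathway, had 3 higher and none lower of 9 at 3 days: the desaturase Scd2 (3.03), the citrate carrier Slc25a1 (1.51) and Acly (0.47), which makes cytosolic acetyl-CoA. The citric acid cycle had 2 lower of 8, Dlst (-1.17) and Idh2 (-0.55), and none higher. Beside the background shares of 20.4% lower and 18.9% higher, the counts of these short lists are descriptions and single out none of them. Acox3 in the peroxisomal list and Sucla2 in the citric acid cycle list are counted but showed no variation (0.0, SE 0.005 for each). The 1 ketone body gene measured, Bdh1, was not called (-0.02). Median log2 changes at 3 days were -0.228 for the peroxisomal list, -0.369 for uptake and activation, -0.55 for regulators, 0.441 for synthesis and -0.068 for the citric acid cycle.

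**Figure D4:**
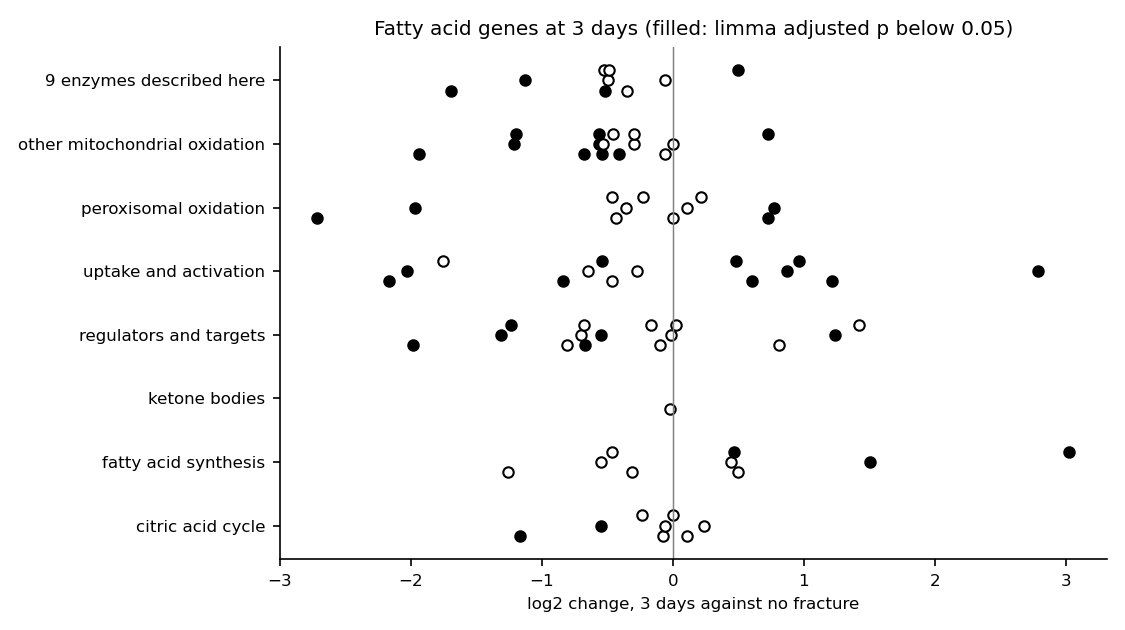
Change in log2 signal at 3 days against no fracture for each measured gene, by list, with filled points for a limma adjusted p below 0.05. The 15 other mitochondrial oxidation genes have 8 filled points left of 0 and 1 right of it, and the synthesis list has 3 filled points, all right of 0.

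Age was compared over the 6 times. None of the 9 genes differed between older and young rats (smallest limma adjusted p = 0.164), where 0.446% of all probe sets were called. The unadjusted limma p was under 0.05 for 3 of the 9 genes and for 1230 of all 8740 probe sets. None of the 9 genes differed between adult and young rats either (smallest adjusted p = 0.946), where 0.0801% of all probe sets were called. Here the unadjusted limma p was under 0.05 for none of the 9 genes and for 836 of all 8740 probe sets. The median log2 difference of older against young rats was 0.266 over the 9 genes and -0.011 over all probe sets, with 8 of the 9 estimates above 0. Acadl and Ech1 were higher in the older rats at 6 of 6 times, and Cpt1a and Cpt2 at 5 of 6. For Ech1 the 6 arrays had a lowest, median and highest signal of 709, 864 and 1292 in older rats, against 572, 758 and 858 in young rats, a difference of 0.31 on the log2 scale (95% interval 0.11 to 0.51, adjusted p = 0.164). These groups overlapped. For Acadm the difference was -0.05 (95% interval -0.40 to 0.31), with older above young at 3 of 6 times.

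At 4 and 6 weeks the study asked whether older bone recovers as young bone does. None of the 9 genes passed at these times either, where 1.24% of all probe sets were called. The unadjusted limma p was under 0.05 for 4 of the 9 genes and for 1826 of all 8740 probe sets. The largest estimate was that of Acaa2, which read 2262 and 1826 in older rats at 4 and 6 weeks, against 1208 and 1224 in young rats. The difference was 0.74 on the log2 scale (95% interval 0.42 to 1.06, limma adjusted p = 0.0701). It passed with log2(signal + 50) (adjusted p = 0.0439) and among probe sets with a mean signal of 200 or more (0.0334). Calls over all probe sets were then 296 and 415, against 108 without these changes. No other setting gave a call, and with the actin ratio as a covariate the Acaa2 difference was 0.89 (adjusted p = 0.296). Ech1 read 1292 and 1103 in older rats at these times, against 785 and 858 in young rats, a difference of 0.54 (adjusted p = 0.0818). Acadm ran the other way at 6 weeks, with 1122 in older and 1413 in young rats, and its difference over both times was -0.15 (95% interval -0.51 to 0.21).

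Whether the age difference at 4 and 6 weeks departed from that without a fracture was tested as an interaction, which rests on 1 unfractured array per age. None of the 9 genes passed (smallest limma adjusted p = 0.149), where 3.02% of all probe sets were called. For Acaa2 the interaction was 0.80 (95% interval 0.24 to 1.36), and for Acadm, Acadl and Hadhb it was -0.60, -0.53 and -0.51. The older unfractured array held the highest of all 18 signals for Acadm, Acadl, Hadha and Hadhb, at 2184, 2494, 3566 and 2276.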

How the data were processed

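The deposited values were signal intensity per probe set, which the authors computed with Affymetrix Microarray Suite from perfect match and mismatch probes and scaled to an average of 500 per array. Each array held RNA of 2 rats of one age and time. The 59 control probe sets were left out, signals were floored at 20, and log2 values went into a linear model with additive terms for time and age (limma 3.58.1 in R 4.3.3, variance trend on). Benjamini-Hochberg adjustment covered all 8740 probe sets, with a threshold of 0.05. The comparison at 4 and 6 weeks and the interaction used age within phases. The script was tested on simulated data. Gene symbols came from the GEO platform annotation, which is old, and promoters from RefSeq (GRCr8). The 9 genes and all lists were chosen with earlier results of these data known. From each fatty acid, muscle and adipocyte list the up to 4 called genes with the largest change at 3 days were named, and other cell types were given by counts. Myh1, Eci1, Bdh1, Ppara, Esrra, Acadsb, Acox3 and Sucla2 were named outside that rule, after their values were seen. Array number limits the precision. Present and absent calls were not used here.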

Additional observations from a re-analysis of the deposited data

Results flagged for a closer look

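Among the 27 groups of 6 arrays (each gene in each age, over the 6 times), 2 held an array far from its nearest neighbour by Dixon's ratio at the 95% level, and chance gives this in about 1 in 20 groups. Acadm was 2184 in older rats without a fracture, with the next array of that age at 1146. Acaa2 was 2208 in young rats without a fracture, with the next at 1224. Both are the unfractured array of their age, which differs from the other 5 in having no fracture.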

How the results depend on the processing

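Each time comparison already matches arrays of one age through the age term, and the labels number no other replicates. No estimate that passed the test under any setting changed its direction. Of the 9 genes at 3 days, 4 were called, where 39.3% of all probe sets were. The number was 7 with quantile normalization (6 of them lower), where 38.4% of all probe sets were called. It was 2 with the actin ratio as a covariate (13.5% of all) and 1 with only the arrays of the 2 times fitted (10.3%). A t-test, which the methods name, gave 1 at an unadjusted p of 0.005 (12.8%) and 2 after Benjamini-Hochberg (16.3%). The study set 0.005 for its comparison of single arrays by their probes, and not for its t-tests. At 1 week the 2 calls became 1 under the actin ratio, the 2 times alone and both forms of the t-test. Of all probe sets 35.8% were called at 1 week. Under the actin ratio this was 11.7%, with the 2 times alone 4.07%, and by the t-test 12.7% unadjusted and 16% adjusted. At 2 weeks the 1 call became 2 with log2(signal + 50), with a mean signal of 200 or more and without the age term, and 0 with the 2 times alone. At 4 weeks the 1 call became 0 with a floor of 100, median centring, the mean signal filter, quantile normalization, log2(signal + 50), the actin ratio, the 2 times alone, both t-tests and no age term. At 6 weeks the 1 call became 2 under quantile normalization and 0 with a floor of 100, the 2 times alone, both t-tests and no age term. For 6 weeks against 3 days the 3 calls became 1 under both t-tests and 0 with the 2 times alone, and under the actin ratio none of the 3 remained and 1 other, Acaa2, was called. Of all probe sets 20.2% were called in that comparison. By the t-test this was 7.11% unadjusted and 4.47% adjusted, with the 2 times alone 0.0686% and under the actin ratio 5.79%. For older against young at 4 and 6 weeks the 0 calls became 1 with log2(signal + 50) and with the mean signal filter. Calls over all probe sets rose there from 108 to 296 and 415. Against no fracture, calls over all 8740 probe sets fell in several settings: with the 2 times alone they were 0 at 2, 4 and 6 weeks, by the adjusted t-test 46 at 4 weeks and 12 at 6 weeks, and under the actin ratio 180 at 4 weeks, against 2868, 1855 and 1350 at 2, 4 and 6 weeks as reported. The cause was not tested, except that fewer arrays enter the fit of 2 times alone.

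With 1 age left out in turn, the number of genes called was 2 to 3 at 3 days, 2 at 1 week, 1 at 2 weeks, 0 to 1 at 4 weeks, 0 at 6 weeks and 0 to 2 for 6 weeks against 3 days. Over all probe sets, calls without the adult or the older rats were 37 and 111 at 4 weeks and 57 and 46 at 6 weeks. With 1 time left out it stayed at 0 for older and adult against young rats. Leaving out 4 or 6 weeks from the late age comparison and the interaction, chosen after seeing the data, also gave 0.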
